A study of Mus musculus with 12 samples.

Results

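Homeostatic microglia-like cells were picked out of single-cell libraries of neonatal mouse meninges by their RNA. Cells were considered when they had at least 200 detected genes and at most 10% of their UMIs (unique molecular identifiers, each a counted RNA molecule) on mitochondrial genes. A cell was a member when Sparc, P2ry12, Tmem119 and Sall1 together had at least 5 UMIs. These UMIs also had to outnumber those of the meningeal macrophage genes Mrc1, Cd163, F13a1, Cbr2 and Pf4 together. A member further had 0 UMIs of Gpnmb and at most 1 UMI of the division genes Mki67, Top2a, Cdk1, Cenpf, Birc5 and Ccnb2. These conditions were met by 1451 of the 21689 cells that passed the limits on genes and mitochondrial UMIs.

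Microglia are the resident macrophages of the brain, seeded from the yolk sac and maintained by signalling through the CSF1 receptor. In the resting state they survey the tissue with moving processes and carry the ADP receptor P2ry12, the membrane protein Tmem119 and the transcription factor Sall1, and they lower many of these genes when activated. The meninges wrapped around the brain hold a related but distinct population of border macrophages, marked by Mrc1, Pf4 and Lyve1.

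The study sampled C57Bl/6j mice at postnatal day 4, either 6 hours after hypoxia-ischemia (HI), in which a reduced blood supply is combined with low oxygen to injure the newborn brain, or naive. Each of the 2 HI and 2 naive pools came from the meninges of 12 mice, 6 male and 6 female, and was profiled with the 10x Genomics 5′ chemistry for gene expression and, from the same cells, for B-cell and T-cell receptor transcripts. The pools were handled in 2 runs of 1 HI and 1 naive pool. The labels do not tie a pool's number to a run, and no sham-operated group is among the samples used. Tests with 2 libraries a group measure only the spread between these pools, and nothing in the labels separates that spread from the one between runs.

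HI 1 and HI 2 held 303 and 398 members, naive 1 and naive 2 held 422 and 328. They made up 7.19% (exact binomial 95% interval 6.43 to 8.02) and 6.21% (5.63 to 6.83) of the kept cells in the HI libraries, against 8.24% (7.50 to 9.03) and 5.52% (4.95 to 6.13) in the naive libraries. These intervals cover counting error only. The naive libraries lay on both sides of the HI libraries. The mean share was 6.70% ± 0.696 after HI and 6.88% ± 1.92 in naive mice (SD, n = 2 each). The difference was -0.177 percentage points (two-sided exact permutation test over libraries, p = 1). The smallest p that 2 against 2 libraries allow is 0.333. Members had a median of 10970 and 9551.5 UMIs in the HI libraries and 9522.5 and 9945 in the naive libraries, and their summed depth was between 3592911 and 4540771 UMIs per library. Of the kept cells, between 29 and 54 barcodes were shared by any pair of libraries, and 1 such barcode was a member in both, in HI 1 and HI 2.

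The label was checked on genes that the choice of cells did not use, in cells thinned to 3000 UMIs. A UMI of Olfml3, an extracellular matrix protein of microglia, was found in 84.5% and 94.97% of HI members and in 93.8% and 94.5% of naive members. Among the meningeal macrophages it was found in 2.88% and 3.56% of cells in the HI libraries and in 4.66% and 4.50% in the naive libraries. Siglech, a sialic acid-binding receptor, was found in 75.9% and 77.9% of HI members and in 85.3% and 82.6% of naive members, against between 5.58% and 7.52% of the macrophages of the 4 libraries. Csf1r, the receptor for CSF1, which all tissue macrophages carry, was found in between 97.3% and 99.2% of the members and between 99.1% and 99.5% of the macrophages of the 4 libraries, and so does not separate the classes. The condition was met through Sparc alone in 24 members; Sparc is a matrix protein that fibroblasts and choroid plexus cells also make. All 4 of the choosing genes were detected in 54.8% and 63.1% of HI members and in 63.3% and 69.5% of naive members. A second choice of cells made with Siglech, Olfml3, Gpr34 and Slc2a5 in place of the 4 genes, at a minimum of 3 UMIs, held 96.4% and 97.7% of the HI members and 93.4% and 91.2% of the naive members. Just inside the limit, 3, 4, 3 and 2 members of HI 1, HI 2, naive 1 and naive 2 had 5 to 7 UMIs of the choosing genes, and 7, 15, 10 and 14 cells with 2 to 4 UMIs lay just outside it.

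The genes that chose the cells are given as a description. The summed UMIs of Sparc, P2ry12, Tmem119 and Sall1 had a median of 63 and 69 per member in the HI libraries and of 91 and 97 in the naive libraries. P2ry12 stood at 1851 and 2749 CPM (UMI counts of the summed members, scaled to the same total in every library) in the HI libraries, against 3650 and 3690 CPM in the naive libraries. Sparc stood at 3383 and 3850 CPM after HI, against 4568 and 4457 CPM in naive mice, Tmem119 at 340 and 557 against 574 and 590 CPM, and Sall1, a transcription factor that keeps microglial identity, at 113 and 141 against 146 and 156 CPM. All 4 genes were thus below both naive libraries in both HI libraries, and HI 1 was the lowest in each. These levels can be tested in the cells chosen by the other 4 genes, where 87 of 10286 genes passed an adjusted p of 0.05, 40 (0.389%) higher and 47 (0.457%) lower after HI. There the log2 change of P2ry12 was -0.72 (SE 0.15, edgeR quasi-likelihood test with Benjamini-Hochberg adjustment, adjusted p = 0.0673). It was -0.35 for Sparc (adjusted p = 0.0807), -0.41 for Tmem119 (adjusted p = 0.312) and -0.30 for Sall1 (adjusted p = 0.272). None of the 4 passed the threshold of 0.05. Without HI 2 all 4 passed, at -1.02 for P2ry12, -0.43 for Sparc, -0.81 for Tmem119 and -0.45 for Sall1, and without HI 1 only P2ry12 did, at -0.47; the lone HI library is then assumed to vary like the naive ones.

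**Figure D1:**
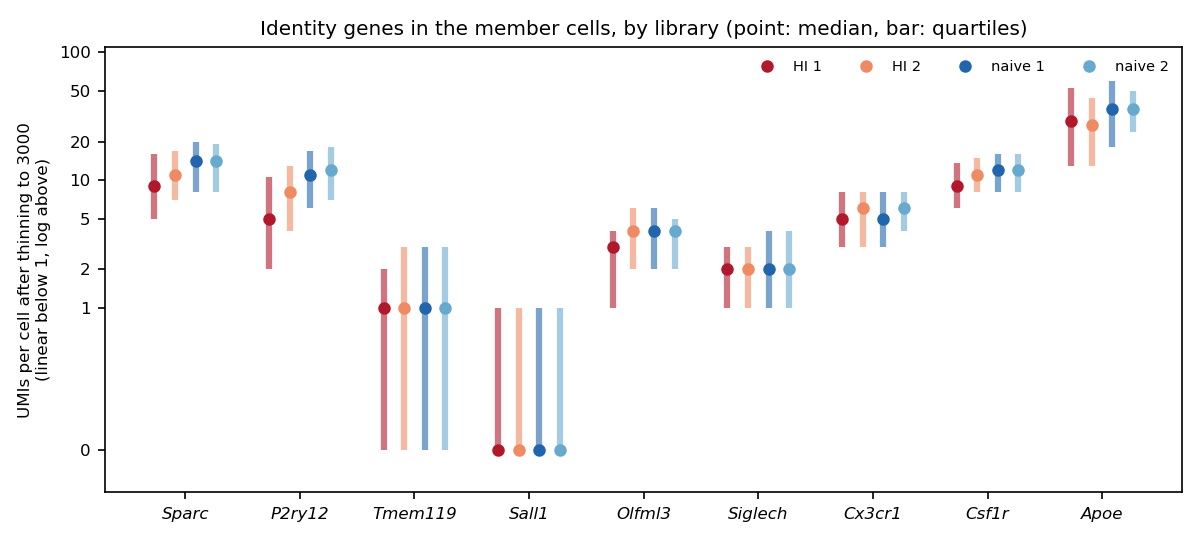
UMIs per cell of 9 identity genes in members thinned to 3000 UMIs each (y axis, linear below 1 and logarithmic above), with the median as a point and the quartiles as a bar for HI 1, HI 2, naive 1 and naive 2. The P2ry12 median was 5 and 8 UMIs in the HI libraries and 11 and 12 in the naive libraries, while the Siglech median was 2 in all 4.

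None of the tested identity genes outside the choice passed the test, and most had a lower level after HI. Across all genes, 10374 were tested between HI and naive members and 75 (0.723%) were called at an adjusted p under 0.05. Of these, 36 (0.347%) rose and 39 (0.376%) fell. The median log2 change over all genes was -0.0028. Over all tested genes, 9.18% were higher and 8.31% lower after HI at an unadjusted p under 0.05, and 24.4% were above and 25.1% below both naive libraries in both HI libraries; counts in the lists are to be read against these shares. Of 26 tested microglia identity genes that the choice did not use, 0 were called by edgeR, and 12 had an unadjusted p under 0.05, all lower after HI. DESeq2 called 3 of them, Golm1, Hpgd and Rhob, all lower. It gave an adjusted p to only 4941 genes, so its counts here and below do not cover every gene of each list. The list's median log2 change was -0.23, and 19 of the 26 were below both naive libraries in both HI libraries, against 25.1% of all genes. Olfml3 stood at 895 and 1307 CPM after HI, against 1289 and 1261 CPM in naive members (log2 change -0.21, adjusted p = 0.562), so the HI libraries lay on both sides of the naive ones. Siglech stood at 605 and 709 CPM after HI, against 810 and 738 CPM in naive members (log2 change -0.23, edgeR adjusted p = 0.320). The most abundant of the list, Cst3 (cystatin C), stood at 11880 and 12171 CPM after HI, against 14396 and 14058 CPM in naive members (log2 change -0.24, adjusted p = 0.158). Of 14 microglia transcription factors 0 were called by edgeR, with a median of -0.20 and 6 at an unadjusted p under 0.05, all lower; DESeq2 called 1, Mef2a, as lower. Spi1, the factor PU.1, stood at 562 and 645 CPM after HI, against 613 and 642 CPM in naive members. Of the 14 tested genes of the TGF-beta and CSF1 receptor axis, which maintains microglia, 0 were called by edgeR and 0 by DESeq2, and 4 had an unadjusted p under 0.05, all lower.

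Among the genes that rose, the largest change was in Socs3, the feedback inhibitor that cytokines acting through STAT3 induce. Socs3 stood at 68.3 and 89.4 CPM in the HI libraries, against 17.6 and 19.5 CPM in the naive libraries. The libraries of the groups did not overlap, and the log2 change was 2.10 (SE 0.18, edgeR adjusted p = 0.00348). After each cell was thinned to 3000 UMIs, a Socs3 UMI was found in 14.2% and 20.4% of HI members and in 4.50% and 6.10% of naive members. Among the meningeal macrophages it was found in 3.31%, 4.17%, 1.01% and 0.543% of the cells of HI 1, HI 2, naive 1 and naive 2, whose median depths were 10572, 9438, 10569 and 9847 UMIs. Without thinning, the member shares were 36.3% and 46.0% after HI and 14.7% and 15.2% in naive mice. The 3 richest cells held 21.8%, 6.87%, 16.25% and 14.3% of the Socs3 UMIs of HI 1, HI 2, naive 1 and naive 2.

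Ccl12, a chemokine that draws CCR2-bearing monocytes, stood at 322 and 371 CPM in the HI libraries, against 116 and 110 CPM in the naive libraries (log2 change 1.62, SE 0.11, edgeR adjusted p = 0.0013). Its UMIs came from 172 and 230 HI members and from 202 and 124 naive members, with 24.6%, 15.8%, 10.5% and 25.2% of them in the 3 richest cells of HI 1, HI 2, naive 1 and naive 2. Ccl12 was the only gene called by edgeR of the 23 tested NF-kB and inflammatory cytokine genes (DESeq2 also called Il1a, as higher), whose median log2 change was 0.45. The cytokine Tnf stood at 31.5 and 16.7 CPM after HI, against 8.15 and 5.01 CPM in naive members, and did not pass (adjusted p = 0.0637); it was named after its values were seen.

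Fcgr4, an activating Fc receptor for IgG, stood at 45.3 and 40.0 CPM after HI, against 15.6 and 17.5 CPM in naive members (log2 change 1.37, SE 0.15, edgeR adjusted p = 0.0177). It was the 1 called gene of 6 Fc receptor genes tested, and the median of the 6 was 0.24. C5ar1, the receptor for the complement fragment C5a, stood at 137 and 150 CPM after HI, against 95.1 and 93.0 CPM in naive members (log2 change 0.61, adjusted p = 0.0429), and was the 1 gene that rose of 14 complement and synapse pruning genes tested. In both genes the HI libraries lay above both naive libraries.

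**Figure D2:**
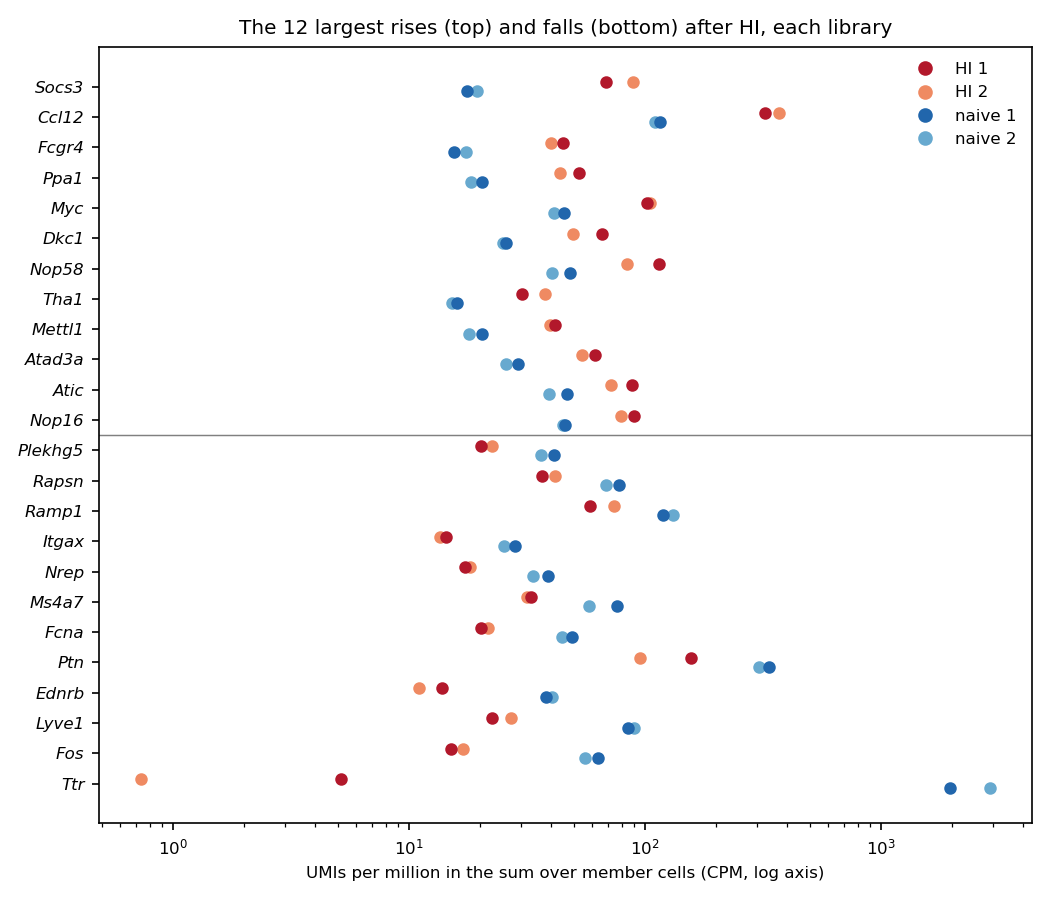
CPM (x axis, logarithmic) in the summed members of each library for the 12 largest rises (above the line) and the 12 largest falls (below it) among called genes of at least 20 CPM. Separate HI and naive points were a condition for a gene to be shown. Socs3 was at 68.3 and 89.4 CPM after HI and at 17.6 and 19.5 CPM in naive members. Ttr was at 5.15 and 0.737 CPM after HI and at 1969 and 2894 CPM in naive members.

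Myc, the transcription factor that drives growth and ribosome production, rose to 102 and 105 CPM in the HI libraries, against 45.4 and 41.5 CPM in the naive libraries (log2 change 1.26, SE 0.11, edgeR adjusted p = 0.00474). Of the 9 tested genes of a list of Myc, Max and their partners, Myc was the only one called, and the list's median was -0.41. Genes of ribosome production were among the other rises. Of the 8 core proteins of small nucleolar RNPs, which modify ribosomal RNA, 4 rose by edgeR and 6 by DESeq2, 8 were higher in both HI libraries, against 24.4% of all genes, and the median log2 change was 0.71. Dkc1, the pseudouridine synthase of that machinery, stood at 66.2 and 49.9 CPM after HI, against 25.8 and 25.05 CPM in naive members (log2 change 1.19, adjusted p = 0.0326). Nop58, a core protein of the methylation-guiding particles, stood at 116 and 83.8 CPM after HI, against 48.4 and 40.4 CPM in naive members (log2 change 1.16, adjusted p = 0.0326). Nhp2 and Fbl (fibrillarin) were the other risers, at 0.80 and 0.59 on the log2 scale.

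Of 20 nucleolar maturation factors 4 rose by edgeR and 8 by DESeq2, 19 were higher in both HI libraries, against 24.4% of all genes, and the median log2 change was 0.77. Ncl (nucleolin), the most abundant of the risers, stood at 540 and 407 CPM after HI, against 275 and 250 CPM in naive members (log2 change 0.85, SE 0.14, edgeR adjusted p = 0.0400). Nop16, Mrto4 and Pa2g4, which act in assembly of the large ribosomal subunit, rose by 0.89, 0.86 and 0.77 on the log2 scale. Both lists were put together after the called genes had been seen, so their counts only describe how many of their other members moved. Of the 24 large-subunit ribosomal proteins themselves 0 were called by edgeR or DESeq2, 2 had an unadjusted p under 0.05, both higher, a share near the 9.18% of all genes, and the median was 0.08. However, 13 of the 24 were higher and 0 lower in both HI libraries, against 24.4% and 25.1% of all genes. Of 19 RNA polymerase I subunits and factors 0 were called by either tool, 8 had an unadjusted p under 0.05, all higher, and the median was 0.23. In both HI libraries 10 of these 19 were higher and 1 was lower.

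Of 13 enzymes of purine synthesis, a list also added after the calls were seen, 2 rose by edgeR and by DESeq2, with a median of 0.53 over the list. Atic, which carries out the last steps of the pathway to IMP, stood at 88.1 and 72.0 CPM after HI, against 46.7 and 39.2 CPM in naive members (log2 change 0.90, adjusted p = 0.0401). Impdh2, which commits IMP to guanine nucleotides, stood at 136 and 126 CPM after HI, against 80.4 and 74.3 CPM in naive members (log2 change 0.76, adjusted p = 0.0326). Other called genes are given by their changes. The transfer RNA methyltransferases Mettl1 and Nsun2 rose by 1.07 and 0.81 on the log2 scale, the pyrophosphatase Ppa1 by 1.31, and the threonine aldolase Tha1 by 1.12. Mitochondrial proteins among the risers were Atad3a (1.07), Idh3a (0.79), Hspd1 (0.79), Tomm40 (0.70) and C1qbp (0.67). The cap-binding factor Eif4e (0.73), the nuclear transport GTPase Ran (0.65) with its partner Ranbp1 (0.69), and the chaperones Hsp90aa1 (0.62) and Cct3 (0.66) rose by smaller amounts, and Cct3 was the 1 called by edgeR of 7 subunits of its complex (DESeq2 called Cct3 and Cct8). Of the 36 called genes that rose, 0 were detected in fewer than 5% of the members in every library. The share of all tested genes below this limit was not counted, so the 0 is a description only.

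The promoters of these genes were read for the palindrome CACGTG, the E-box that MYC and its partner MAX recognise, along with other factors. The 250 bases before the start sites in RefSeq (GRCm38.p6) were searched. The palindrome was found in 7 of the 30 risen genes that matched the table (23.3%), in 2 of 27 fallen genes (7.41%) and in 6.86% of all 27025 genes; a gene with several start sites counted once. The 27025 genes were not limited to those tested in the members, nor matched for expression or base composition. No conclusion is drawn from the difference in shares. The palindrome reads the same on both strands. The stretches below hold it in capitals, 5′ to 3′ on the strand of the gene, and are shown because the genes rose together with Myc. A match is a stretch of letters and not a measured binding site. They were taken from Atic (chr1:71557026-71557155, plus strand), Hspd1 (chr1:55088244-55088373, minus strand), Eif4e (chr3:138527138-138527267, plus strand), Ran (chr5:129020008-129020137, plus strand), Impdh2 (chr9:108560296-108560425, plus strand), Ppa1 (chr10:61648451-61648580, plus strand) and Bzw2 (chr12:36156826-36156955, minus strand). The last line shows Socs3 (chr11:117969421-117969550, minus strand), in which the capitals mark TTCNNNGAA, the palindrome that STAT factors recognise. This motif was found in 3 of the 30 risen genes (10.0%), in 3 of 27 fallen genes (11.1%) and in 8.13% of all genes.
Atic: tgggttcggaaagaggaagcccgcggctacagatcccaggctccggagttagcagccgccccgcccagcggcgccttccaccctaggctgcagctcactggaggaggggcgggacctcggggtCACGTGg
Hspd1: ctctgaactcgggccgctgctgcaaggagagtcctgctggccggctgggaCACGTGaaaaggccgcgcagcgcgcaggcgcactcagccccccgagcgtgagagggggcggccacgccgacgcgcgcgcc
Eif4e: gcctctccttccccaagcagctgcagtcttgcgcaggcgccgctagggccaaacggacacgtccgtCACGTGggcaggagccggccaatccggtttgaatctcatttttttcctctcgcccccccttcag
Ran: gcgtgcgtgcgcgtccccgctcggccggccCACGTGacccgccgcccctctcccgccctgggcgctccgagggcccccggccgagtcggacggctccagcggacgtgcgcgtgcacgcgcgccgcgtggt
Impdh2: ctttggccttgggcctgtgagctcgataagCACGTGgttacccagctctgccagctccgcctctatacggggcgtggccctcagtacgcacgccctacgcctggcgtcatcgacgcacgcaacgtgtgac
Ppa1: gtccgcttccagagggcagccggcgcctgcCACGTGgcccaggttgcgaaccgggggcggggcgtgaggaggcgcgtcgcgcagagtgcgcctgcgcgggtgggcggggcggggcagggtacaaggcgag
Bzw2: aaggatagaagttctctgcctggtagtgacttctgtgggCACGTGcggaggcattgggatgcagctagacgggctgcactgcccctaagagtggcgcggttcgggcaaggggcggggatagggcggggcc
Socs3: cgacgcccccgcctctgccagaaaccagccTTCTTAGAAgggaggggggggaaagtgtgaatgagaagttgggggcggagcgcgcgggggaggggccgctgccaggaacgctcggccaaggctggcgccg

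Of the genes that fell, Fos, an immediate-early transcription factor, changed across many cells. It stood at 15.2 and 17.0 CPM in the HI libraries, against 63.6 and 55.9 CPM in the naive libraries (log2 change -1.89, SE 0.15, edgeR adjusted p = 0.00261), and was detected in 40 and 45 HI members and in 137 and 102 naive members. Fosb and the phosphatase gene Dusp1 fell by 3.15 and 1.48 on the log2 scale, so that 3 of 19 tested immediate-early genes fell by edgeR (by DESeq2 Fos and Jund), 0 rose, and the median of the list was -0.46. Fosb was near the floor, with 5 UMIs in the HI members, from 2 and 3 cells. In the naive members it had 49 UMIs, from 29 and 14 cells. Other genes that fell are given by their values. Ramp1, a subunit of the receptor for the neuropeptide CGRP, stood at 58.6 and 74.4 CPM after HI, against 119 and 132 CPM in naive members (log2 change -0.91, adjusted p = 0.0363). The sphingosine-1-phosphate receptor S1pr1 fell by 0.81, the cytokine receptor Il21r by 0.79 and the adiponectin receptor Adipor1 by 0.67 on the log2 scale. Itgax, the integrin CD11c that marks microglia of developing white matter, stood at 14.4 and 13.5 CPM after HI, against 28.2 and 25.3 CPM in naive members (log2 change -0.94, adjusted p = 0.0471), and its UMIs came from 28, 19, 36 and 39 members of HI 1, HI 2, naive 1 and naive 2. It was the 1 gene called by edgeR of 23 phagocyte, lipid and disease-associated genes, of which DESeq2 called 0. The call of Itgax ended with doublets removed (adjusted p = 0.0610), at a minimum of 10 UMIs of the choosing genes (0.0616), with a mitochondrial limit of 5% (0.0586), with the margin of 3 over the macrophage genes (0.0930), with the choice made on thinned counts (0.203), with cells of other types removed (0.286), in the cells chosen by both sets of genes (0.0648), and without naive 1 (0.236) or naive 2 (0.382). The neuronal and glial growth regulator Nrep fell by 1.03, the synaptic scaffold gene Rapsn by 0.90 and Plekhg5 by 0.85 on the log2 scale.

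A second set of falls sat in few cells. Of the 39 genes that fell, 14 were detected in fewer than 5% of the members in every library, a limit not counted over all tested genes. Ttr (transthyretin), the chief secreted protein of choroid plexus epithelium, stood at 5.15 and 0.737 CPM in the HI libraries, against 1969 and 2894 CPM in the naive libraries (log2 change -9.72, edgeR adjusted p = 0.000147). Its UMIs came from 5 and 3 HI members and from 11 and 7 naive members, and the 3 richest cells held 99.8% of them in naive 1 and 99.9% in naive 2. The choroid plexus genes as a list summed to 115 and 31.0 CPM after HI, against 2120 and 3001 CPM in naive members, with 2 of 6 tested genes called, both lower. Sostdc1 and Calml4 had 0 UMIs in the HI members and 80 and 45 UMIs in the naive members, from 3 and 3 cells of naive 1 and naive 2 for Sostdc1 and from 3 and 2 for Calml4. Penk, the enkephalin precursor, and Defb11 also had 0 UMIs after HI, against 72 UMIs from 4 and 4 naive cells for Penk and 44 from 3 and 2 for Defb11. The neuropeptide gene Npy had 3 UMIs from 1 cell in each HI library and 173 UMIs in the naive members, from 2 cells in each naive library. These 5 genes thus rest on at most 4 cells of a naive library, and no fold is given for them. In the cells chosen by both sets of genes, a setting added after the data were seen, the log2 change of Ttr was -3.07 and no longer passed (adjusted p = 0.0855).

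Genes of the meningeal macrophages moved with this group. The 16 macrophage markers that the choice did not use summed to 677 and 572 CPM in the HI members, against 909 and 933 CPM in the naive members, and were at 3 or more UMIs in 216, 256, 276 and 213 members of HI 1, HI 2, naive 1 and naive 2. The most abundant of these markers were Stab1, at 235 and 243 CPM after HI and 325 and 320 CPM in naive members, and Dab2. Dab2 stood at 211.5 and 116 CPM after HI, against 176 and 200 CPM in naive members. Of 12 markers tested, 4 fell (Lyve1, Ms4a7, Fcna and Cd209f) and 0 rose, with a median of -0.75. Lyve1, the hyaluronan receptor of border macrophages, stood at 22.5 and 27.0 CPM after HI, against 84.8 and 90.5 CPM in naive members (log2 change -1.81, edgeR adjusted p = 0.00261), from 18, 18, 36 and 35 members. Its level was 2317 and 2409 CPM in the macrophages of the HI libraries, against 2209 and 2384 CPM in those of the naive libraries. Of the macrophage genes that the choice of members used, 4 were fitted in the cells chosen by the other 4 genes. That choice also required the macrophage genes to have fewer UMIs than its own genes, so their levels there are a description and no test. There the log2 change was 0.04 for Mrc1, -0.14 for F13a1, 0.42 for Cbr2 and -0.75 for Pf4. In a stricter choice, the microglia genes of a member had to exceed the macrophage genes by a factor of 3. The log2 change was then -1.83 for Lyve1 (adjusted p = 0.107), -0.12 for Fcna (adjusted p = 0.857) and -0.87 for Ms4a7 (adjusted p = 0.198). It was -1.19 (adjusted p = 0.265) for Ednrb, the endothelin B receptor, which had fallen by 1.66, so the calls of all 4 genes ended. With marked doublets removed, the same 4 genes also missed the threshold (adjusted p = 0.0886, 0.368, 0.210 and 0.0886 for Lyve1, Fcna, Ms4a7 and Ednrb). Ptn, a growth factor of neurons and glia, fell by 1.34 on the log2 scale, was detected in 9, 9, 24 and 14 members of HI 1, HI 2, naive 1 and naive 2, and gave -0.91 (adjusted p = 0.191) in the cells chosen by both sets of genes. Socs3, Ccl12, Myc and Fos passed under each of these 3 settings. Their log2 changes lay between 2.04 and 2.13 for Socs3, between 1.51 and 1.64 for Ccl12, between 1.23 and 1.26 for Myc and between -2.08 and -2.04 for Fos. With all cells that carried markers of other types removed, Socs3 (2.38, adjusted p = 0.0036) and Fos (-2.44, 0.00341) passed, and Ccl12 (1.18, 0.114) and Myc (1.04, 0.138) did not.

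The number of genes called between HI and naive members turned on the libraries used. Without naive 2, only Ttr was called (1 gene), and Socs3, Ccl12 and Fos had an adjusted p of 0.0537 with log2 changes of 2.19, 1.61 and -1.95; that of Myc was 1.22 (adjusted p = 0.105). Without naive 1, 15 genes were called, Socs3 (adjusted p = 0.0222), Ccl12 (0.00972), Myc (0.0464) and Fos (0.00972) among them. Without HI 1 and without HI 2, 431 and 850 genes were called. Of the small nucleolar RNP and nucleolar maturation lists, 0 genes were called without naive 1 and 0 without naive 2.

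**Figure D3:**
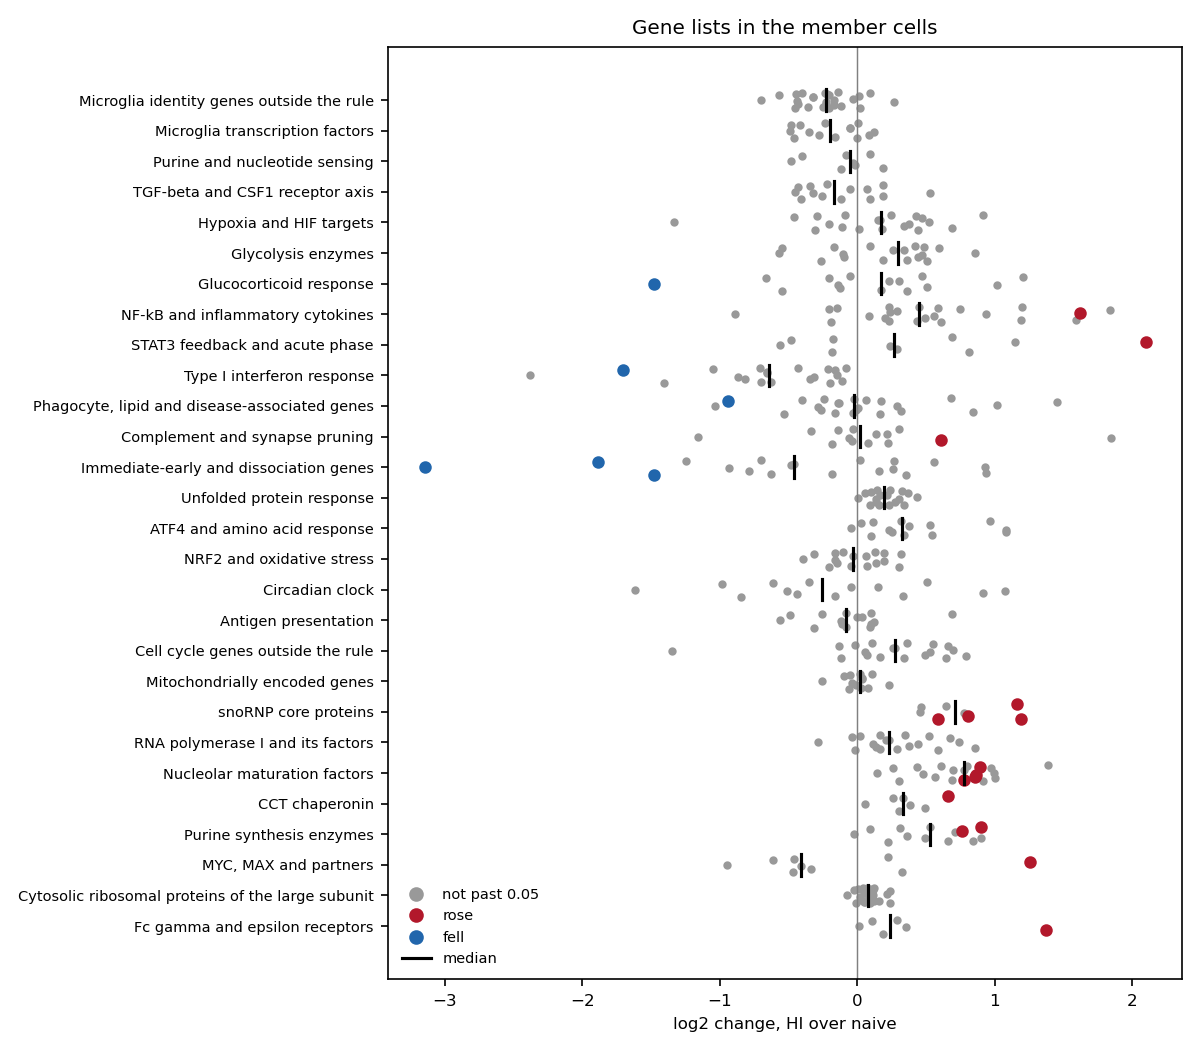
Log2 change of HI over naive in the members (x axis) for each tested gene of the lists (rows), with called genes in colour and the median as a black line. The medians of the small nucleolar RNP proteins and nucleolar maturation factors were 0.71 and 0.77, and that of the type I interferon genes was -0.64.

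Programmes commonly followed after hypoxia passed the test in few genes. Of 20 tested hypoxia and HIF target genes 0 were called by edgeR, and 0 of the 9 to which DESeq2 gave an adjusted p. By edgeR, 4 had an unadjusted p under 0.05 in the higher and 3 in the lower direction (all genes 9.18% and 8.31%), and the median was 0.17. Of 18 glycolysis enzymes 0 were called by edgeR and 2 by DESeq2 (Pgam1 and Pkm, both higher), and 5 had an unadjusted p under 0.05, all higher, with a median of 0.30. Pkm stood at 902 and 702 CPM after HI, against 609 and 521 CPM in naive members (log2 change 0.51, adjusted p = 0.113). Of 18 unfolded protein response genes 0 were called by edgeR and 1 by DESeq2 (Hspa5, higher), 5 had an unadjusted p under 0.05, all higher (all genes 9.18%), 15 were higher in both HI libraries (all genes 24.4%) and the median was 0.19. Of 20 type I interferon genes 1 fell and 0 rose by edgeR, 14 were lower in both HI libraries (all genes 25.1%), and the median was -0.64. DESeq2 gave an adjusted p to 6 genes of the list and called a different one, Ifi27l2a, as lower. The gene called by edgeR, the antiviral Ifit3, stood at 5.15 and 3.93 CPM after HI, against 16.5 and 13.1 CPM in naive members (log2 change -1.70, adjusted p = 0.0410), and came from 10, 14, 17 and 12 members. Of the 15 glucocorticoid response genes edgeR called 1, Dusp1, as lower. DESeq2 gave an adjusted p to 7 of them and called another, Sgk1, as lower. The tested genes of antigen presentation (15, median -0.09), of the NRF2 response (17, median -0.03) and those encoded in the mitochondrial genome (13, median 0.02) had 0 calls by edgeR and by DESeq2, and 0 at an unadjusted p under 0.05. Spp1 (osteopontin) was a gene of few cells: it stood at 4482 and 2460 CPM after HI, against 1823 and 2057 CPM in naive members (log2 change 0.84, adjusted p = 0.127), with 24.0%, 42.8%, 55.2% and 37.1% of its UMIs in the 3 richest cells of HI 1, HI 2, naive 1 and naive 2.

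The response was set beside that of the meningeal macrophages, 12062 cells of the same 4 libraries in which the macrophage genes outweighed the microglia genes. In the macrophages 535 of 12931 genes were called (4.14%), 298 higher (2.30%) and 237 lower (1.83%) after HI. The macrophage sums were deeper, with between 26256944 and 37693177 UMIs per library, so the numbers of calls are not compared between the classes. Of the lists above, 8 of 22 hypoxia genes, 6 of 19 glycolysis enzymes and 12 of 18 unfolded protein response genes rose in the macrophages. The median log2 changes of these lists were 0.32, 0.24 and 0.39 in the macrophages, against 0.17, 0.30 and 0.19 in the members. The difference in the HI effect was tested gene by gene in a fit with library and class as terms. By this test, 36 of 12902 genes were called (0.279%), 4 (0.0310%) with a higher and 32 (0.248%) with a lower HI effect in the microglia-like cells. Without HI 1, HI 2 and naive 1 these calls numbered 464, 334 and 8. With all 4 libraries, 1 of 22 genes of the hypoxia list was called, Pdk1, a kinase that shuts pyruvate out of mitochondria. Of the glycolysis list 0 of 19 and of the unfolded protein response list 0 of 18 were called. Of the 20 nucleolar maturation factors 1 was called, Ncl, and of the 8 small nucleolar RNP proteins 0. In the macrophages 7 and 2 of these rose, with medians of 0.37 and 0.38, against 0.77 and 0.71 in the members. Socs3, Ccl12, Myc and Fcgr4 were not called either.

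The 4 genes with the higher effect in microglia-like cells were Tubb2b, Gatm, Phgdh and Ncl. With marked doublets removed Gatm passed (adjusted p = 0.0333), and Tubb2b (0.108), Phgdh (0.0599) and Ncl (0.0830) did not. Ncl was the one that also rose in the microglia-like cells on its own; its difference in log2 change was 0.58 (SE 0.09, edgeR adjusted p = 0.0397), and in the macrophages it stood at 306 and 249 CPM after HI, against 243 and 219 CPM in naive mice. Gatm, the first enzyme of creatine synthesis, stood at 408 and 330 CPM in HI members, against 288 and 240 CPM in naive members (log2 change 0.49, adjusted p = 0.117). In macrophages it stood at 455 and 370 CPM after HI, against 593 and 600 CPM in naive mice (log2 change -0.53, adjusted p = 0.0306). The difference for Gatm was 1.02 (SE 0.10, adjusted p = 0.00933). Phgdh, the first enzyme of serine synthesis, was at 315 and 377 CPM in HI members, against 322 and 319 CPM in naive members, and at 6.74 and 7.83 CPM in HI macrophages, against 11.4 and 11.7 CPM in naive macrophages (difference 0.77, adjusted p = 0.0221).

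Several of the genes with the lower effect in microglia-like cells rose in the macrophages, Fkbp5 and Spp1 among them. Both were named after their values were seen. Fkbp5, a co-chaperone that glucocorticoids induce, stood at 10.3 and 14.2 CPM in HI members, against 11.7 and 15.9 CPM in naive members (log2 change -0.14, adjusted p = 0.835). It stood at 12.6 and 12.7 CPM in HI macrophages, against 2.73 and 3.30 CPM in naive macrophages (log2 change 2.07, adjusted p = 0.00237). The difference was -2.22 (SE 0.26, edgeR adjusted p = 0.0136). For Spp1 the difference was -1.09 (adjusted p = 0.0197), with a log2 change of 1.92 in macrophages. Fos fell in the microglia-like cells by more than in the macrophages, where its log2 change was -0.51 (difference -1.37, adjusted p = 0.0108). Of the 23 tested type I interferon genes 3 had a lower effect and 0 a higher one, among them Ifit3 (difference -1.84, adjusted p = 0.0159) and Isg15 (difference -1.32, adjusted p = 0.0306). Of the 16 macrophage markers 7 were called in the same direction (all genes 0.248%), Lyve1, Fcna and Cd209f among them. The levels of Lyve1 in members are given above. Fcna stood at 20.3 and 21.6 CPM in HI members, against 49.3 and 44.8 CPM in naive members. Cd209f had 4 UMIs in the HI members and 102 in the naive members. They came from 3, 1, 6 and 5 members of HI 1, HI 2, naive 1 and naive 2.

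**Figure D4:**
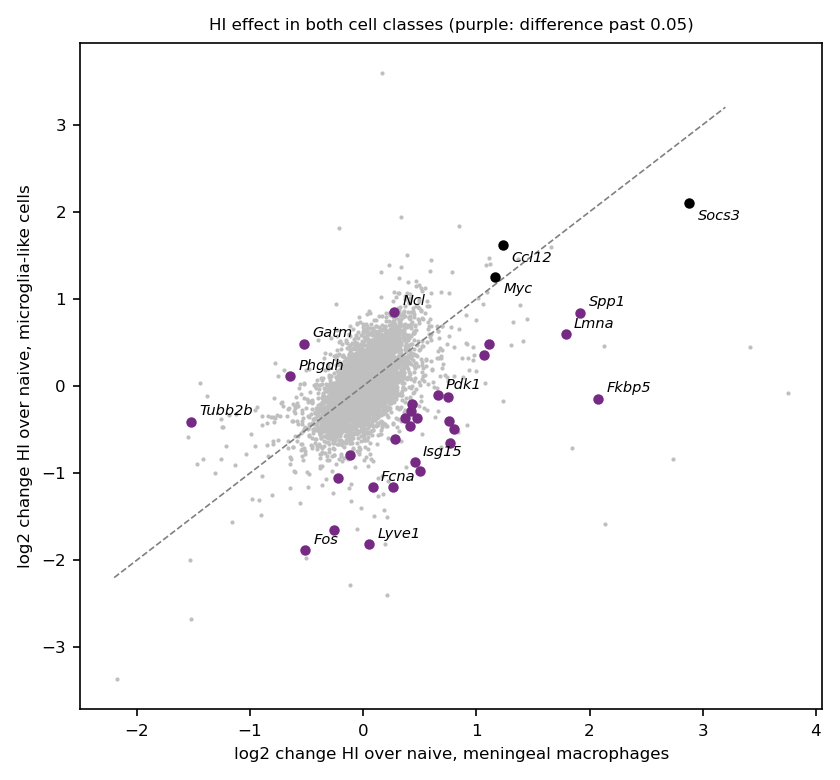
Log2 change of HI over naive in microglia-like cells (y axis) against that in meningeal macrophages (x axis) for 7625 genes with a mean of at least 10 CPM in the members and a log2 change in members of less than 5; both axes come from the same 4 pools. Purple marks the genes among these whose HI effect differed between the classes, and the dashed line marks equal change: Fkbp5 lies at -0.14 and 2.07, and Socs3, in black, at 2.10 in the microglia-like cells.

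The receptor libraries gave a readout that the choice of cells did not use. Contigs assigned to IGHM, the constant region of the IgM heavy chain, but without a V gene were found on 519 of the 1451 members. They were on 31.4% (exact binomial 95% interval 26.2 to 36.9) and 28.4% (24.0 to 33.1) of the members of HI 1 and HI 2, and on 40.3% (35.6 to 45.1) and 43.0% (37.6 to 48.5) of those of naive 1 and naive 2. Of the meningeal macrophages in the same libraries, 3.31% and 0.877% carried such a contig after HI, and 6.61% and 2.78% in naive mice. The share was thus higher in members than in macrophages in 4 of 4 libraries, and none of the intervals of the classes met. Cells of the B lineage, which transcribe IGHM as their own receptor, carried V-less contigs in 10.3% and 27.6% of cases after HI and in 19.8% and 29.4% in naive mice. None of the 734 IGHM contigs of the members was full length, and 234 of them were assigned to the joining segment IGHJ4. A productive B-cell receptor contig was on 0 and 1 members of the HI libraries and on 0 and 1 of the naive libraries.

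Ighm was also counted in the gene expression libraries. Whether its UMIs and the V-less contigs came from the same transcript was not tested. Ighm stood at 173 and 226 CPM in HI members, against 222 and 263 CPM in naive members (log2 change -0.28, edgeR adjusted p = 0.381), and at 35.5 and 20.2 CPM in HI macrophages, against 66.97 and 40.2 CPM in naive macrophages. After thinning, an Ighm UMI was in 43.2% and 48.5% of HI members and in 45.7% and 50.9% of naive members, and in 7.61%, 4.01%, 12.7% and 7.85% of the macrophages of HI 1, HI 2, naive 1 and naive 2. Cd79b, a signalling chain of the B-cell receptor, was at 105 and 113 CPM in HI members, against 126 and 144 CPM in naive members. Between the groups, the mean share of members with a V-less IGHM contig was 29.9% ± 2.09 after HI and 41.6% ± 1.91 in naive mice (SD, n = 2 each), and the libraries did not overlap. The difference was -11.8 percentage points (two-sided exact permutation p = 0.333, the smallest that 2 against 2 allow). The same share in macrophages differed by -2.60 percentage points (exact permutation p = 0.667), and the depth of the receptor libraries was not set equal.

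**Figure D5:**
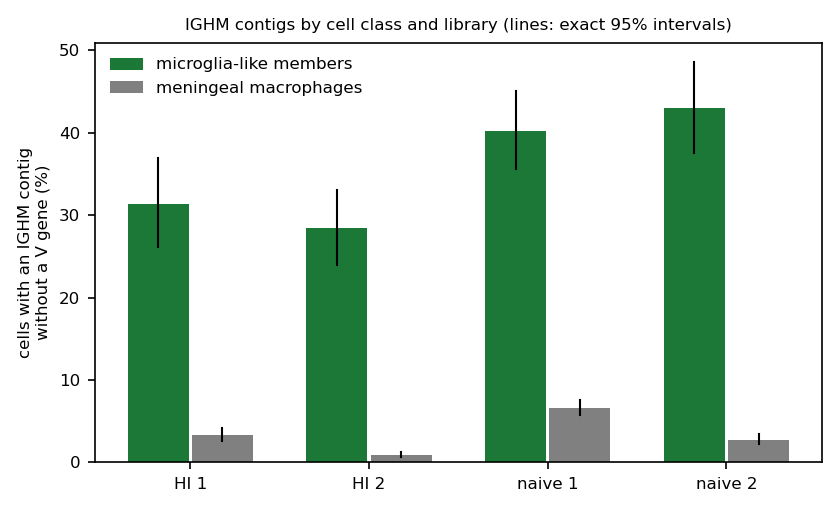
Percent of microglia-like members (green) and meningeal macrophages (grey) with an IGHM contig lacking a V gene (y axis), in HI 1, HI 2, naive 1 and naive 2, with exact binomial 95% intervals as lines. Members lie between 28.4% and 43.0% and macrophages between 0.877% and 6.61%.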

How the data were processed

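The authors deposited UMI counts per gene and cell barcode for the 4 gene expression libraries and contig tables, with UMI and read counts per contig, for the 8 receptor libraries of the same pools. The submitters' processing notes name Cell Ranger 2.2.0, Seurat and the mouse build mm10 (GRCm38). The matrices held 28694 genes and between 4213 and 6421 barcodes, with between 51986763 and 68543046 UMIs per library; between 4212 and 6410 cells were kept. Counts of members were summed per library and tested with edgeR 4.0.16 (R 4.3.3; quasi-likelihood, default low-count filter, TMM scaling, Benjamini-Hochberg adjustment, threshold 0.05), on the 2 HI and 2 naive libraries without a block. The difference between microglia-like cells and meningeal macrophages used 1 fit over both classes with library as a term. Thinning drew 3000 UMIs per cell without replacement. Doublets were marked with Scrublet (scanpy 1.11.5) and kept, except in the alternative without them. The genes the text names are the 12 largest called changes each way with a mean of at least 20 CPM and libraries that did not overlap, up to 4 called genes each way from each list, or 2 abundant genes of a list with 0 called, and 6 each way of the difference between classes; others are said to be chosen after their values were seen or come from the lists and calls described. The members, gene lists and tests were chosen with earlier results of these data known, and 8 lists (those of ribosome production, purine synthesis, MYC partners, CCT and Fc receptors among them) were added after seeing which genes were called. On simulated counts with known changes over 10222 genes, the same test recovered 100 of 100 genes changed by 2 on the log2 scale and 89 of 100 changed by 1, with 4 false calls. The changed genes had at least 20 CPM, and all genes were given the same spread between libraries. Changes in rarer genes, and genes held by few cells, were not simulated. Alternatives covered scaling, filter, DESeq2 1.42.0, the label numbers as a block, each library left out and the limits of the choice. Of the gene IDs, 28341 matched the gene table. In bulk sums of cells, fewer cells with a transcript and less of it per cell are not told apart unless the counts of cells are given. Some results are not reported here.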

Additional observations from a re-analysis of the deposited data

Results flagged for a closer look

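The test of the difference in HI effect between microglia-like cells and meningeal macrophages (edgeR, adjusted over 12902 genes) called 36 genes (0.279%). Of these, 10 are given here. They are all 4 with a higher effect in microglia-like cells and the 6 largest lower ones with a mean of at least 20 CPM in either class. The effect was higher in microglia-like cells for Tubb2b (1.13 on the log2 scale, adjusted p = 0.0377), a tubulin, for Gatm (1.02, adjusted p = 0.00933), for Phgdh (0.77, adjusted p = 0.0221) and for Ncl (0.58, adjusted p = 0.0397). Tubb2b stood at 48.5 and 45.7 CPM in HI members, against 62.5 and 62.9 CPM in naive members, and at 9.71 and 12.8 CPM in HI macrophages, against 34.9 and 31.1 CPM in naive macrophages. The effect was lower for Cd209f (-4.20, adjusted p = 0.0270), Lyve1 (-1.86, adjusted p = 8.74e-05), Ifit3 (-1.84, adjusted p = 0.0159), Clec10a (-1.77, adjusted p = 0.0278), Cd38 (-1.47, adjusted p = 0.0297) and Clec4n (-1.47, adjusted p = 0.0233). In the members these 6 genes were at 27.0 CPM or less in both HI libraries, and Lyve1, Clec10a, Cd38, Clec4n and Cd209f were at 178 CPM or more in all 4 macrophage sums. The value for Cd209f rests on few cells. It had 4 UMIs in the HI members and 102 in the naive members, from 3, 1, 6 and 5 members of HI 1, HI 2, naive 1 and naive 2. The 3 richest cells held 86.1% of its UMIs in naive 1 and 91.3% in naive 2. With marked doublets removed, Gatm was the 1 of these 10 genes that passed (1.07, adjusted p = 0.0333). The difference was then 1.13 for Tubb2b (adjusted p = 0.108), 1.34 for Phgdh (0.0599), 0.61 for Ncl (0.0830), -2.199 for Cd209f (0.654), -1.61 for Lyve1 (0.1501), -1.69 for Ifit3 (0.0520), -0.61 for Clec10a (0.761), -1.30 for Cd38 (0.317) and -0.82 for Clec4n (0.493).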

How the results depend on the processing

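The number of genes called between HI and naive members, 75, was 962 with no low-count filter, 132 with DESeq2 (53 of them shared with the 75), 36 with at least 10 UMIs of the choosing genes, 36 with the margin of 3 over the macrophage genes, 13 with the choice made on thinned counts, 48 with doublets removed, 3 with cells of other types removed, 28 with a mitochondrial limit of 5% and between 1 and 850 with 1 library left out. With Cd79b, Ighm and Csf3r not counted when cells of other types were removed, a setting added after the data were seen because most members carry them, it was 284. With the label numbers as a block it was 591, and same-numbered libraries deviated together with a correlation of 0.12; the labels do not say that a number marks a run, so the pairing is only a shared number. For the difference between classes, 36 calls became 372 with no filter, 55 with DESeq2, 7 with doublets removed, 11 with other cell types removed and between 8 and 464 with 1 library left out. DESeq2 gave an adjusted p to 4941 genes between HI and naive members and to 1890 for the difference between classes, against 10374 and 12902 by edgeR. In the cells chosen by other genes, Sparc passed with DESeq2 (-0.35, adjusted p = 0.0311). With 1 library left out, the log2 change lay between -0.43 and -0.27 for Sparc, -1.02 and -0.47 for P2ry12, -0.81 and -0.10 for Tmem119, and -0.45 and -0.16 for Sall1. Fcna was at 0.21 (adjusted p = 0.872) and the difference for Clec10a at 0.43 (adjusted p = 0.951) with other cell types removed; fewer cells were left, and the cause was not tested. On unthinned counts the HI minus naive share of members with a UMI was 0.137 percentage points for Siglech, 26.2 for Socs3 and -19.5 for Fos, against -7.07, 12.0 and -10.7 after thinning. Depth limits genes near 1 UMI per cell.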
